A study of Rattus norvegicus with 12 samples.

Results

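Cholesterol synthesis and its sterol-regulated control were followed in the cells of rat bronchoalveolar lavage fluid (BALF) through 8 listed genes, Hmgcs1, Idi1, Fdps, Fdft1, Sqle, Cyp51, Insig1 and Srebf2. A gene was taken from the probe sets of an Affymetrix rat genome array that name it and no other gene, and the probe set of the highest mean intensity represented it. This gave 7 genes with values, read from 11 probe sets, among 12853 genes tested in all. Hmgcs1 was not analysed here, since no probe set carries its name in the annotation used. All 7 genes passed the filter on low intensities.

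The study set COMB, LPS and HPO rats against CTL rats to examine how hypoxia and lipopolysaccharide (LPS, a component of the bacterial outer membrane) act together in acute lung injury. All animals were Sprague-Dawley rats of 8 weeks, described as male, and went without food and water while the experiment ran. COMB rats received LPS at 0.5 mg/kg and then 6 h of hypobaric hypoxia in a decompression chamber at 405.35 mmHg, which equals 5000 m of altitude or 11.2% oxygen, LPS rats received the LPS alone and HPO rats the hypoxia alone. CTL rats received saline into the tail vein. Each group had 3 arrays, and each array held RNA pooled from several rats, so the spread between rats within a pool is averaged away. The labels give 2, 2 and 3 rats for the COMB pools and 3 rats for every other pool. Pools of a group came from different rats, and p values measure the spread between pools. Pools are named below by the numbers of their rats.

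Array medians lay between 32.72 and 35.61 on the linear intensity scale of the deposited values, and precision is limited by how many arrays there were. Markers of the alveolar macrophage, the main cell of a resting lavage, were bright in every group. Cd68 lay between 3943 and 4243 in COMB, 3811 and 4066 in LPS, 3817 and 4400 in HPO and 3663 and 4250 in CTL pools. Lpl and Fabp4 were lower in COMB. Lpl lay between 3205 and 4111 in COMB and 5219 and 5964 in CTL pools, and Fabp4 between 557.7 and 856 in COMB and 908.3 and 1060 in CTL pools. The list as a whole went both ways. Of the 12 markers measured, 2 rose and 3 fell in COMB against CTL, with 6 positive and a median log2 fold change of -0.065. In COMB against LPS, 1 rose and 4 fell. COMB pools also carried more signal from neutrophil markers than any other pool, at a summed intensity of 7475 to 14153, against 2510 to 3033 in LPS, 397.6 to 588.7 in HPO and 543.8 to 3441 in CTL pools. The highest of the CTL sums belonged to the pool from rats 5, 6 and 7, which stood apart from the other CTL pools (572 and 543.8). In such bulk samples, fewer cells of a type and less RNA per cell cannot be told apart.

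Cholesterol is built from acetyl-CoA through mevalonate, isoprenoid units, squalene and lanosterol. Idi1 isomerizes isopentenyl diphosphate, the basic isoprenoid unit, Fdps joins such units to farnesyl diphosphate, Fdft1 joins farnesyl units to squalene, Sqle oxidizes squalene, and Cyp51 removes a methyl group from lanosterol. Srebf2 encodes the transcription factor SREBP-2, which switches on the genes of this pathway when sterols in the endoplasmic reticulum are low. Insig1 encodes the membrane protein that holds the SREBP precursor in the endoplasmic reticulum when sterols are ample, and it is itself a target of SREBP. Alveolar macrophages take up and clear surfactant lipid, and export of sterol belongs to their known functions.

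Sqle and Fdps were called higher in COMB than in both groups without hypoxia, and Idi1 and Insig1 in COMB than in CTL only. Without array weights, none of the 7 genes was called for LPS alone or for hypoxia alone. In COMB against CTL, 4 of the 7 genes rose (Sqle, Fdps, Idi1 and Insig1, by log2 fold changes of 0.66, 0.63, 0.59 and 0.37) and 0 fell. Across all 25692 probe sets tested, 8.84% rose and 10.2% fell in that comparison. By their main probe sets, all 7 genes had a higher fitted mean in HPO than in CTL and in COMB than in LPS (in every scaling tried). Yet limma with Benjamini-Hochberg adjustment called 0 of them in HPO against CTL and 2 in COMB against LPS. The second probe sets had log2 fold changes of 0.31 for Fdft1, 0.0015 for Idi1, 1e-04 for Cyp51 and -0.08 for Srebf2 in COMB against LPS. In HPO against CTL they were positive for Fdft1, Idi1 and Cyp51 and at -0.10 for Srebf2. The plot of intensity by pool shows every value behind these counts.

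**Figure D1:**
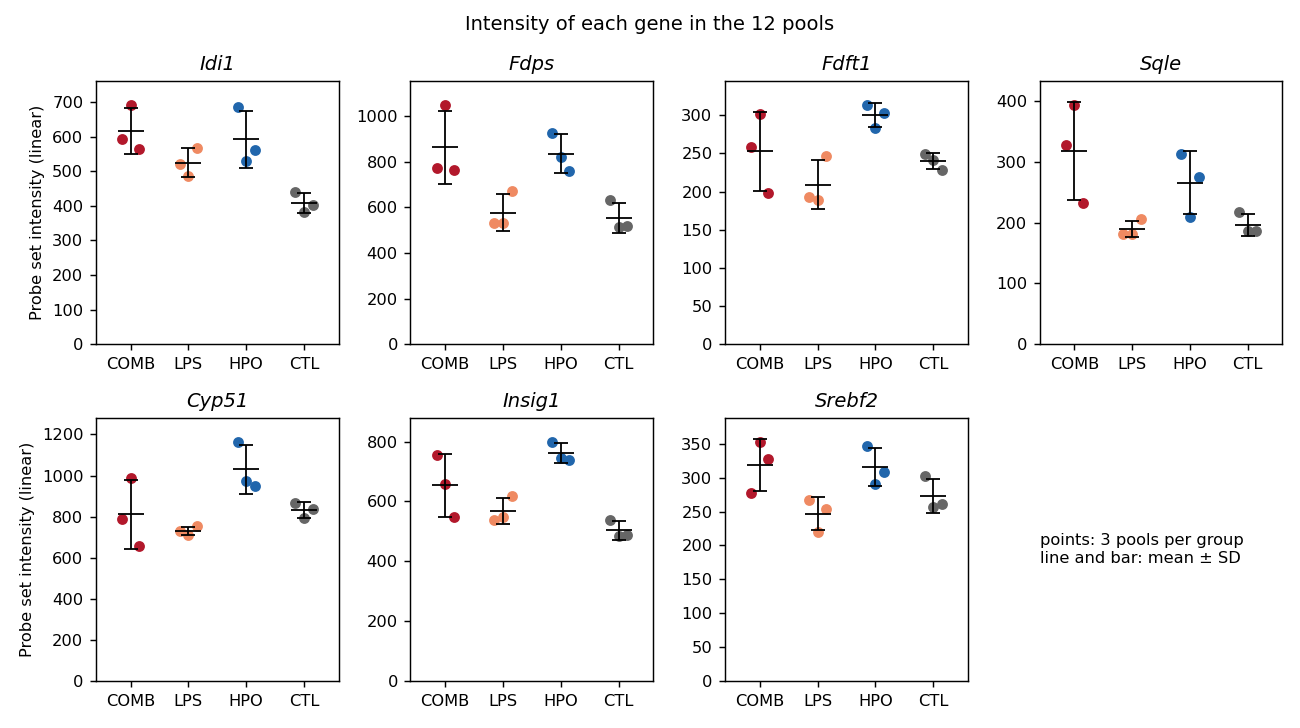
Probe set intensity (linear scale, from 0) of the 7 genes in the 12 pools, with COMB, LPS, HPO and CTL from left to right. Points are the 3 pools of a group, and the line and bar are their mean ± SD. Fdps and Insig1 show the HPO pools above the CTL pools with no overlap, while the COMB pools spread widely for Sqle, Fdft1 and Cyp51.

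Of the isoprenoid enzymes, Idi1 (gene ID 89784) had intensities of 593.3, 691.9 and 565 in COMB, 520.8, 485.1 and 567.9 in LPS, 685.3, 530.9 and 561.5 in HPO and 438.8, 382.7 and 402.7 in CTL pools. The CTL pools were the lowest, with no overlap with any other group, while LPS, HPO and COMB overlapped in that order of rising means. Idi1 rose in COMB against CTL with a log2 change of 0.59 (standard error, SE, 0.12, adjusted p = 0.00495). Its second probe set, at 179.1, 237 and 166.8 in COMB and 158.5, 151.4 and 160.7 in CTL pools, had a smaller log2 fold change of 0.29 that was not called (adjusted p = 0.204).

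Fdps (gene ID 83791) had intensities of 773.8, 1049 and 765.6 in COMB, 530.6, 529.7 and 670.9 in LPS, 926.7, 819.6 and 758.4 in HPO and 631.2, 511.9 and 518.2 in CTL pools. The 6 pools with hypoxia lay above the 6 without it, with the LPS pool from rats 8, 9 and 10 nearest to them. CTL and LPS overlapped, as did HPO and COMB. Fdps rose in COMB against CTL by 0.63 (SE 0.15, adjusted p = 0.0118) and in COMB against LPS by 0.57 (adjusted p = 0.0294), both on the log2 scale.

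On the way to squalene, Fdft1 (gene ID 29580) had intensities of 258.4, 301 and 198.7 in COMB, 192.2, 189.1 and 246.3 in LPS, 313.4, 283 and 303.3 in HPO and 249.6, 241.9 and 228.3 in CTL pools. HPO was the highest group and lay above CTL with no overlap, while the COMB pools covered both the CTL range and part of the HPO range. By this probe set, limma fitted to all 12 arrays without array weights called Fdft1 in no comparison. Its log2 fold change in COMB against CTL was 0.06 (95% interval -0.26 to 0.37, adjusted p = 0.836), a value whose sign turned once the arrays were centred on their medians. The second probe set gave the same order of groups. It was called lower only for LPS averaged over the rats with and without hypoxia (log2 fold change -0.33, adjusted p = 0.0458).

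Sqle (gene ID 29230), which catalyses an oxygen-dependent and rate-limiting step, had intensities of 328.1, 393.6 and 232.5 in COMB, 181.6, 182 and 205.6 in LPS, 312.1, 210 and 274.5 in HPO and 217.6, 185.6 and 186.2 in CTL pools. All COMB pools lay above all LPS and CTL pools, while 1 HPO pool, that of rats 2, 4 and 11, lay within the CTL range. Sqle had the highest log2 fold change of the 7 genes in COMB against CTL, 0.66 (SE 0.185, adjusted p = 0.0258), and in COMB against LPS, 0.71 (adjusted p = 0.0285). It also had the widest SE of the 7.

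Cyp51 (gene ID 25427), whose reaction also uses oxygen, had intensities of 788.5, 987.5 and 655.5 in COMB, 727.6, 712 and 753.1 in LPS, 1165, 975.1 and 949.3 in HPO and 866.7, 792.6 and 839.3 in CTL pools. HPO pools were above and LPS pools below all CTL pools, and the COMB pools covered the CTL range on both sides. Its log2 fold change was -0.06 in COMB against CTL (95% interval -0.35 to 0.24, adjusted p = 0.812). In COMB against HPO it was -0.36 for this probe set (adjusted p = 0.0998), and the second probe set of Cyp51 fell by 0.36 with a call (adjusted p = 0.0263).

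Of the regulators, Insig1 (gene ID 64194) had intensities of 754.6, 659 and 546.7 in COMB, 538.2, 547.3 and 619.6 in LPS, 799.9, 745.6 and 740.2 in HPO and 539.5, 484.1 and 486.4 in CTL pools. HPO was the highest group, CTL the lowest, and the COMB pools ran from within the LPS range to within the HPO range. Insig1 rose in COMB against CTL by 0.37 on the log2 scale, just inside the threshold (SE 0.118, adjusted p = 0.049). The call was lost once arrays were centred on their medians (0.31, adjusted p = 0.0885) and with no filter on low intensities (adjusted p = 0.0503).

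Srebf2 (gene ID 300095) had intensities of 277.5, 353.3 and 327.4 in COMB, 266.5, 219.8 and 254.1 in LPS, 346.2, 291.4 and 308 in HPO and 302.1, 256.2 and 261.7 in CTL pools. COMB pools lay above LPS pools with no overlap, and HPO and CTL overlapped. Srebf2 was not called in the main limma fit, which used all 12 arrays, no array weights and the filter at the 20th percentile. In COMB against LPS its log2 fold change was 0.37 (adjusted p = 0.0699), and array weights called it there (adjusted p = 0.0394). Its second probe set was dim, at 12.86 to 13.6 in COMB, 12.35 to 16.1 in HPO and 14.88 to 15.24 in CTL pools. It ran the other way, with the lowest mean in COMB and the highest in CTL. Its log2 fold change was -0.18 in COMB against CTL and -0.08 in COMB against LPS, and it was not called either.

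In COMB against CTL, groups did not overlap for 4 genes (Sqle, Idi1, Fdps and Insig1), all with COMB above CTL, as was the case for 14.9% of all probe sets. The median log2 fold change of the 7 genes was 0.37, beside -0.04 over all probe sets tested. The call of Idi1 held with each of the 12 pools left out in turn. The call of Fdps was lost without the CTL pool from rats 8, 9 and 10 (adjusted p = 0.0515). That of Sqle was lost without the CTL pool from rats 5, 6 and 7 (0.0714), the CTL pool from rats 8, 9 and 10 (0.0873), the COMB pool from rats 2 and 3 (0.0594) or the COMB pool from rats 10 and 11 (0.0931), all as adjusted p. The call of Insig1 was lost in 10 of 12 omissions and held only without the HPO pool from rats 3, 5 and 12 or the COMB pool from rats 12, 13 and 14, with adjusted p between 0.012 and 0.158.

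LPS against CTL asked what LPS did without hypoxia. limma called 0 of the 7 genes, while it called 2.04% of all probe sets, and 1 gene reached an unadjusted p under 0.05. That gene was Idi1, with a log2 fold change of 0.36 (95% interval 0.10 to 0.62, adjusted p = 0.165) and LPS pools above CTL pools with no overlap. By its main probe set, Cyp51 had LPS pools below CTL pools with no overlap and a log2 fold change of -0.19 (adjusted p = 0.605). The second probe set of Cyp51 overlapped between these groups, with a log2 fold change of -0.06 (adjusted p = 0.851). Groups without overlap, in either direction, made up 26.5% of all probe sets. The median log2 fold change of the 7 genes was -0.05, and 3 of 7 were positive, to which quantile normalization added Sqle.

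HPO against CTL asked the same of hypoxia alone. The log2 fold changes were 0.60 for Insig1 (95% interval 0.34 to 0.86, adjusted p = 0.104), 0.59 for Fdps (adjusted p = 0.194), 0.53 for Idi1 (adjusted p = 0.142), 0.42 for Sqle (adjusted p = 0.495), 0.32 for Fdft1 (adjusted p = 0.513), 0.30 for Cyp51 (adjusted p = 0.505) and 0.20 for Srebf2 (adjusted p = 0.673). All were positive, beside 49.4% of all probe sets, and none was called by limma fitted to all 12 arrays without array weights. An unadjusted limma p under 0.05 was reached by 6, and the share of all probe sets under that cutoff was not computed. An unpaired t-test without adjustment called 5 of the 7 genes and 8.66% of all probe sets. With array weights, which called 13.9% of all probe sets and gave the HPO pool from rats 7, 8 and 9 the highest weight, all 7 were called, and the log2 fold change was 0.65 for Sqle and 0.35 for Srebf2. The call rate of this comparison was 0.035% of all probe sets. HPO pools lay above CTL pools with no overlap for 5 genes (Idi1, Fdft1, Fdps, Cyp51 and Insig1), against 9.03% of all probe sets. The median of the 7 genes was 0.42, while that of all probe sets was 0.00 to 2 decimals. Without the COMB pool from rats 2 and 3, which enters only through the shared estimate of spread, Insig1 was called (adjusted p = 0.0339).

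**Figure D2:**
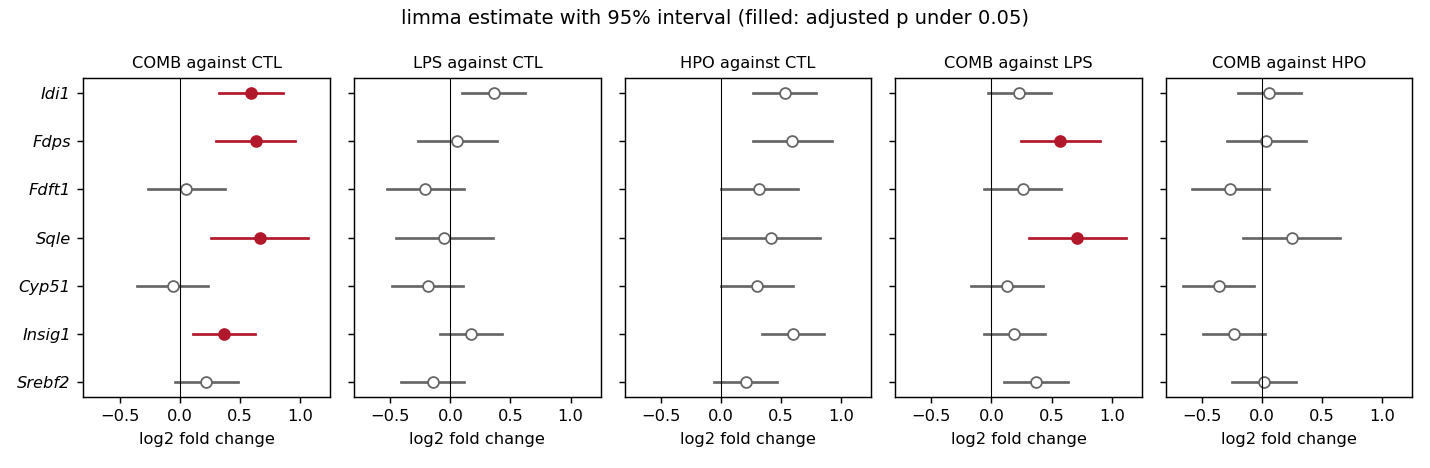
limma log2 fold change (x axis) with its 95% interval for the 7 genes (rows) in 5 comparisons. Filled red points passed an adjusted p of 0.05. In HPO against CTL the points lie between 0.20 and 0.60 and none passed.

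COMB against LPS asked what hypoxia added in rats that had received LPS. Sqle and Fdps rose, which is 2 of the 7 genes, beside 6.64% of all probe sets called higher. COMB pools lay above LPS pools with no overlap for 3 genes (Sqle, Fdps and Srebf2), against 15.4% of all probe sets. Neither call held with every pool left out in turn. Sqle lost its call without the LPS pool from rats 2, 3 and 6 (adjusted p = 0.0932), of rats 5, 7 and 11 (0.0838) or of rats 8, 9 and 10 (0.0586), and without the COMB pool from rats 2 and 3 (0.0575) or of rats 10 and 11 (0.0992). Fdps lost its call without the LPS pool from rats 2, 3 and 6 (0.107), the LPS pool from rats 5, 7 and 11 (0.0977) or the COMB pool from rats 10 and 11 (0.0999). Srebf2 was called without the COMB pool from rats 2 and 3 (log2 fold change 0.47, adjusted p = 0.0288).

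The comparisons COMB against LPS and HPO against CTL share no array. Both were positive for 7 of 7 genes by their main probe sets, while 29.1% of all probe sets were positive in both. Fdps had nearly equal log2 fold changes, 0.57 in COMB against LPS and 0.59 in HPO against CTL. Insig1 had 0.19 in COMB against LPS and 0.60 in HPO against CTL. Idi1 had 0.23 in COMB against LPS and 0.53 in HPO against CTL, and Sqle had 0.71 and 0.42 in that order. The interaction, which is the value of COMB against LPS minus that of HPO against CTL, was called for 0 of the 7 genes and for 0.136% of all probe sets. Insig1 was the only one of the 7 with an unadjusted p under 0.05 for it, at -0.41 (95% interval -0.77 to -0.04, adjusted p = 0.345).

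**Figure D3:**
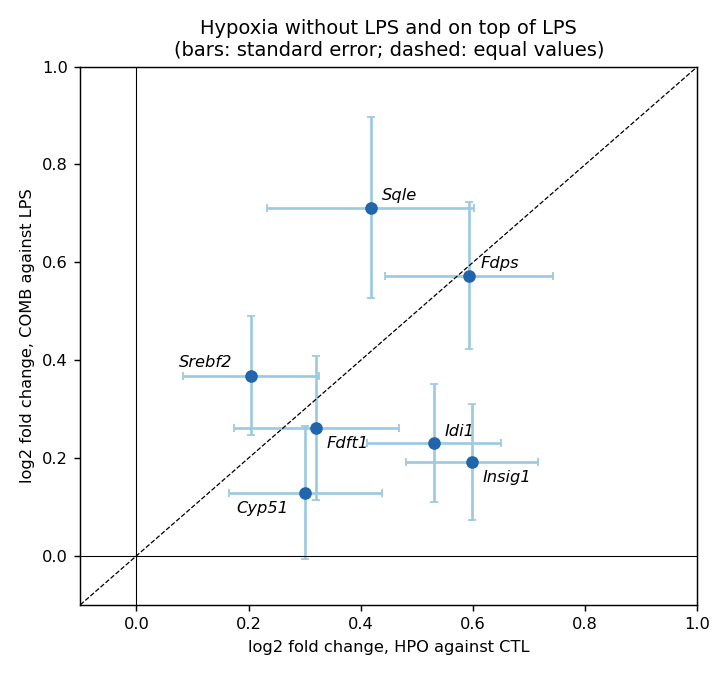
Log2 fold change of COMB against LPS (y axis) against that of HPO against CTL (x axis) for the 7 genes, with standard errors as bars and a dashed line of equal values. Every gene lies above 0 on both axes, and Fdps lies closest to the dashed line.

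Averaged over the rats with and without LPS, a contrast added after the values had been seen, hypoxia was set against no hypoxia with 6 pools on each side. Fdps (log2 fold change 0.58, adjusted p = 0.00641), Insig1 (0.39, adjusted p = 0.0126), Idi1 (0.38, adjusted p = 0.016) and Sqle (0.56, adjusted p = 0.0186) rose, beside 5.83% of all probe sets called higher. The second probe set of Idi1 had 0.18 and was not called (adjusted p = 0.31). The remaining genes had log2 fold changes of 0.29 for Srebf2 (adjusted p = 0.0544), 0.29 for Fdft1 (adjusted p = 0.0989) and 0.21 for Cyp51 (adjusted p = 0.18). Leaving out 1 pool at a time kept the calls of Fdps, Insig1 and Idi1 in all 12 omissions, and that of Sqle was lost without the CTL pool from rats 8, 9 and 10 (adjusted p = 0.0511). Srebf2 was called without the COMB pool from rats 2 and 3 (adjusted p = 0.0225), and Fdft1 without the COMB pool from rats 12, 13 and 14 (adjusted p = 0.0219). With all pools, Srebf2 was also called with a filter at the 40th percentile (adjusted p = 0.0485), log2 of the value plus 16 (0.0435) and the trended robust fit (0.0464).

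The matching average for LPS, also added after the values had been seen, called 0 of the 7 genes, beside 16.9% of all probe sets. Cyp51 had the lowest value, a log2 fold change of -0.27 (adjusted p = 0.0747), and was called without the COMB pool from rats 10 and 11 (-0.35, adjusted p = 0.0138). The second probe set of Fdft1 fell by 0.33 (adjusted p = 0.0458), while its main probe set was at -0.24 (adjusted p = 0.156).

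COMB against HPO asked what LPS added under hypoxia. It called 0 of the 7 genes by their main probe sets, while 15.6% of all probe sets were called. By the main probe sets, no gene had COMB and HPO pools without overlap, against 27.7% of all probe sets. The second probe sets of Fdft1 and Cyp51 had COMB pools below HPO pools with no overlap. That of Fdft1 lay at 87.32 to 130.8 in COMB and 139.7 to 146.3 in HPO pools (adjusted p = 0.135). That of Cyp51 lay at 164 to 190.6 and 210.9 to 233.4 in that order, and was called lower (adjusted p = 0.0263). Those of Idi1 and Srebf2 overlapped. The 95% interval of the log2 fold change was -0.16 to 0.65 for Sqle, -0.29 to 0.36 for Fdps, -0.20 to 0.32 for Idi1, -0.25 to 0.28 for Srebf2, -0.49 to 0.02 for Insig1, -0.59 to 0.05 for Fdft1 and -0.66 to -0.06 for Cyp51. Without the COMB pool from rats 10 and 11, Cyp51 fell by 0.51 (adjusted p = 0.0193).

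Promoters are shown because the values of these genes ran together over the arrays. Over the 12 arrays the 21 pairs of genes had Pearson correlations of 0.39 to 0.89, with a median of 0.71, as a description of values that share arrays and groups. Correlations between pairs of other genes were not computed, so these have no background. RefSeq promoters of build GRCr8, each 250 bases before to 50 after the start that the promoter table uses, matched 5 of the 7 genes (Fdps, Idi1, Insig1, Srebf2 and Cyp51). That start is the outermost start of the gene in the RefSeq annotation for 3 of them, and lies inside the annotated gene by 43 bases for Insig1 and by 533 bases for Srebf2, so the Srebf2 window lies wholly within the annotated gene. The windows below run from 200 to 31 bases before that start for Fdps (chr2:176804847-176805016 on the minus strand), Idi1 (chr17:66547555-66547724 on the minus strand), Insig1 (chr4:8057800-8057969 on the minus strand) and Srebf2 (chr7:115543107-115543276 on the plus strand), written 5′ to 3′ along each gene. Capitals mark matches, on either strand, to the sterol regulatory element TCACNCCA bound by SREBP, the CCAAT box CCAAT bound by NF-Y, and the E-box CACGTG.
Fdps: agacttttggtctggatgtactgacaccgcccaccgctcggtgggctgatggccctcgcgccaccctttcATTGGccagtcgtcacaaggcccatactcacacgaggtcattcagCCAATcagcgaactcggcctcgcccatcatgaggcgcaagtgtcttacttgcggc
Idi1: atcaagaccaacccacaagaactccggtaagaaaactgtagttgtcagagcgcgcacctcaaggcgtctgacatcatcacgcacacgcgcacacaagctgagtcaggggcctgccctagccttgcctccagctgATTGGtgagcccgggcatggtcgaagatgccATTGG
Insig1: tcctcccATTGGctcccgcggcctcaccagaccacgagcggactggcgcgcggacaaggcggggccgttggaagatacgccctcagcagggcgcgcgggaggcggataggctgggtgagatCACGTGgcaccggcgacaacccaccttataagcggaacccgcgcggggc
Srebf2: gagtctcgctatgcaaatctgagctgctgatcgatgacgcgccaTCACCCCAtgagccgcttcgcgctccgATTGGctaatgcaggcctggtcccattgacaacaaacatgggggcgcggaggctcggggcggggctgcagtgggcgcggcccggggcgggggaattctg

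The search covered 9 patterns on both strands over 33469 promoters of the same length. The longer sterol elements TCACNCCAC and TCACCCCAC, held by 1.12% and 0.484% of all promoters, matched none of the 5 genes, and the shorter forms were taken up after that. TCACNCCA matched Srebf2 alone, 156 bases before the start in the promoter table and thus inside the annotated gene, and stood in 3.89% of all promoters, with the form TCACCCCA in 1.37%. CCAAT matched 2 times in Fdps, 2 times in Idi1, 1 time each in Insig1 and Srebf2, and 0 times in Cyp51, and stood in 37.5% of all promoters. The same box followed by 6 free bases stood in 37.1%. The GC box GGGCGG matched Fdps, Insig1, Cyp51 and Srebf2 but not Idi1, and stood in 33.1%. The E-box matched Insig1 alone, 79 bases before the start in the promoter table, and stood in 6.42%, and TCACGTG, which contains it, stood at the same place in Insig1 and in 3.2% of promoters. Such matches describe letters and are not evidence of a site.

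Of the other cholesterol enzymes, 13 of 17 listed were measured. In COMB against CTL, 2 rose and 0 fell, with a median log2 fold change of 0.02. Lss, which closes the ring of lanosterol from the product of Sqle, had intensities of 222.7, 369.1 and 389.4 in COMB and 160.9, 167.4 and 187.9 in CTL pools and rose by 0.88 (SE 0.171, adjusted p = 0.00378). Acat2, a thiolase of the first step, rose by 0.37 (adjusted p = 0.0411). The call of Lss held in all 12 omissions of a pool. That of Acat2 held in 10 of 24 alternatives: it was lost under quantile normalization (adjusted p = 0.0925) and centring (0.0707), and without any of the CTL, any of the LPS or either of the 2-rat COMB pools, with the highest adjusted p (0.147) without the COMB pool from rats 10 and 11. None of the 13 was called in LPS or in HPO against CTL, with medians of 0.00 and 0.16. In HPO against CTL, 10 of the 13 were positive.

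Msmo1, which removes methyl groups after the Cyp51 step, had the pattern most like the mean of the 7 genes among 12846 other genes (r = 0.92 over 12 arrays). Its intensities were 202.3, 270.2 and 167.2 in COMB, 167.6, 161.7 and 202.7 in LPS, 300.6, 240 and 285.6 in HPO and 197.5, 181.6 and 174.1 in CTL pools. HPO pools were above all CTL pools, and COMB pools overlapped with both. Selenbp1 (r = 0.869), Acsm1 (0.864), Zer1 (0.864) and Fam13b (0.859) followed. The opposite pattern was clearest for Dhx8 (r = -0.966), an RNA helicase of splicing, Ints3 (-0.885), a subunit of the Integrator complex, and Suv39h2 (-0.871), a histone methyltransferase. These values describe the same 12 arrays and carry no test.

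The regulators and uptake genes around Srebf2 and Insig1 (12 of 17 measured) gave 0 higher and 1 lower in COMB against CTL. That gene was Mylip, a ubiquitin ligase that degrades lipoprotein receptors, which fell by 0.84 in COMB (adjusted p = 0.00149) and by 0.85 in LPS (adjusted p = 0.0132), both against CTL. Branches that draw on the product of Fdps (12 of 13 measured) gave 0 higher and 3 lower. They were Rabggta, a subunit of the enzyme that prenylates Rab proteins (log2 fold change -0.83, adjusted p = 0.0018), Nus1, a subunit of the enzyme for dolichol (-0.46, adjusted p = 0.00258), and Ggps1, which makes geranylgeranyl diphosphate (-0.41, adjusted p = 0.0155). The call of Ggps1 was lost without the CTL pool from rats 1, 3 and 4 (adjusted p = 0.0564), the CTL pool from rats 8, 9 and 10 (0.0695) or the COMB pool from rats 12, 13 and 14 (0.0574). Rabggta fell in LPS against CTL as well, by 0.66 (adjusted p = 0.0386).

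Fatty acid synthesis (14 of 15 measured) went both ways in COMB against CTL, with 2 genes higher and 3 lower. Acss2, which makes acetyl-CoA from acetate, rose by 0.69 (adjusted p = 0.00955) and Fasn, the fatty acid synthase, by 0.53 (adjusted p = 0.0233). Scd2, a desaturase, fell by 0.84 (adjusted p = 0.0406), Elovl5, an elongase, by 0.47 (adjusted p = 0.02) and Acaca, which makes malonyl-CoA, by 0.43 (adjusted p = 0.0308). Of these 5 calls, that of Acss2 held in all 12 omissions of a pool. Without the CTL pool from rats 1, 3 and 4 the calls of Scd2 (adjusted p = 0.119), Fasn (0.0653), Elovl5 (0.0886) and Acaca (0.118) were lost, and likewise without the CTL pool from rats 8, 9 and 10 (0.137, 0.0865, 0.0647 and 0.0975 in that order of genes). Without the COMB pool from rats 12, 13 and 14, Scd2 (0.145), Elovl5 (0.0713) and Acaca (0.0878) were lost. Elovl5 was also lost without the COMB pool from rats 2 and 3 (0.0597), Acaca without the COMB pool from rats 10 and 11 (0.0903), and Scd2 without the LPS pool from rats 2, 3 and 6 (0.0516) or from rats 8, 9 and 10 (0.0539) and with the trended robust fit (0.0611). Scd2 (log2 fold change -1.17, adjusted p = 0.0419) and Acaca (-0.69, adjusted p = 0.021) also fell in LPS against CTL.

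Sterol export and storage genes had more calls. All 13 listed were measured, and in COMB against CTL 2 rose and 8 fell, with a median log2 fold change of -0.71. Star, which carries cholesterol into mitochondria, had intensities of 84.19, 113.5 and 37.78 in COMB, 112.4, 108.2 and 85.45 in LPS, 337.7, 232.5 and 304.9 in HPO and 404.8, 292.6 and 375.3 in CTL pools. The 6 pools with LPS lay below the 6 without it. Nceh1, a cholesteryl ester hydrolase, fell by 1.05 (adjusted p = 0.00378), Soat1, which esterifies cholesterol, by 1.04 (adjusted p = 4.2e-05) and Acat1 by 0.84 (adjusted p = 0.000258). Acat1 is a mitochondrial thiolase of ketone body and isoleucine metabolism and does not store sterol, although it stands on the list. The genes that rose make oxysterols. Ch25h, the 25-hydroxylase, had intensities of 3951, 3081 and 4092 in COMB, 1609, 2358 and 1871 in LPS, 1446, 1099 and 1336 in HPO and 1050, 863.4 and 896 in CTL pools, and Cyp27a1, the 27-hydroxylase, rose by 1.33 (adjusted p = 0.000261). In LPS against CTL, Star fell by 1.80 (adjusted p = 0.0181) and Ch25h rose by 1.04 (adjusted p = 0.0106). None of the 5 lists had a call in HPO against CTL.

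**Figure D4:**
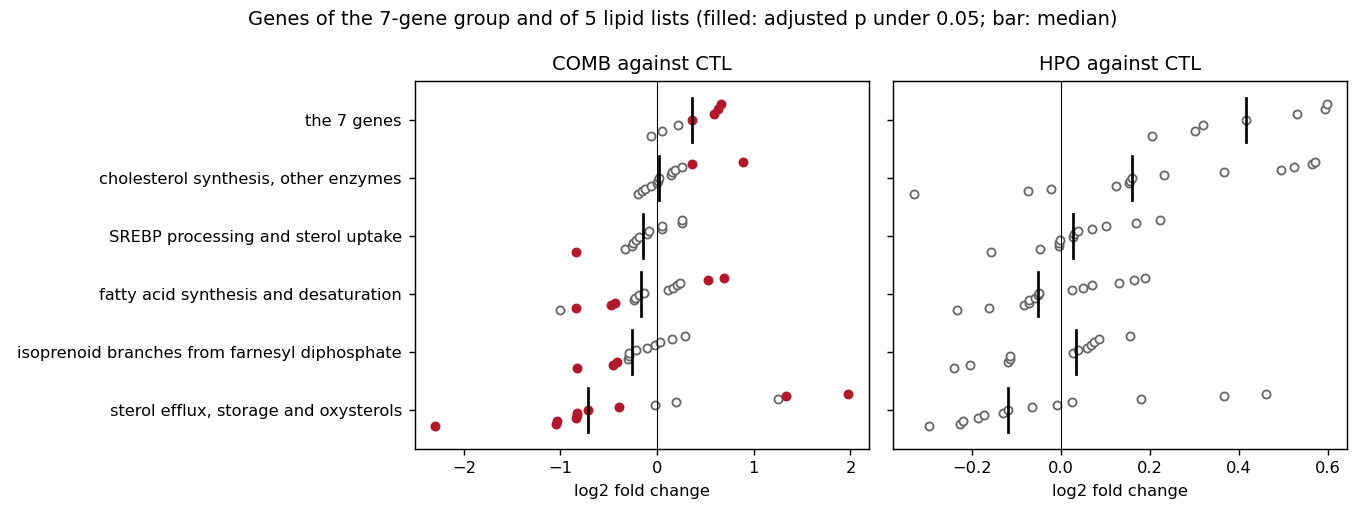
Log2 fold change (x axis, scaled separately in each panel) of the 7 genes and of the genes of 5 lipid lists (rows) in COMB and in HPO, both against CTL. Filled points passed an adjusted p of 0.05, and the bar is the median, which is 0.37 for the 7 genes and -0.71 for sterol efflux, storage and oxysterols in COMB.

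Markers of airway epithelium were highest in COMB and lowest in CTL pools. All 17 listed were measured, and their summed intensity was 23748 to 32110 in COMB, 14955 to 17015 in LPS, 16952 to 17785 in HPO and 7622 to 10198 in CTL pools. In COMB against CTL 15 of 17 rose, in HPO against CTL 1 rose and 17 were positive, in COMB against LPS 15 rose, and in hypoxia averaged over LPS and no LPS 16 rose. Epcam, which defines epithelial cells, lay between 385.4 and 844.6 in COMB, 88.33 and 149.5 in LPS, 162.2 and 240.7 in HPO and 64.94 and 84.19 in CTL pools. Alveolar macrophage markers summed to 24653 to 28049 in COMB, 29134 to 31333 in LPS, 27124 to 27601 in HPO and 27227 to 29742 in CTL pools. Markers of T and NK cells summed to 1323 to 8164 in COMB, 641.9 to 1058 in LPS, 900.5 to 1209 in HPO and 628.7 to 3348 in CTL pools. The part of these cells in the values of the 7 genes was not tested.

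**Figure D5:**
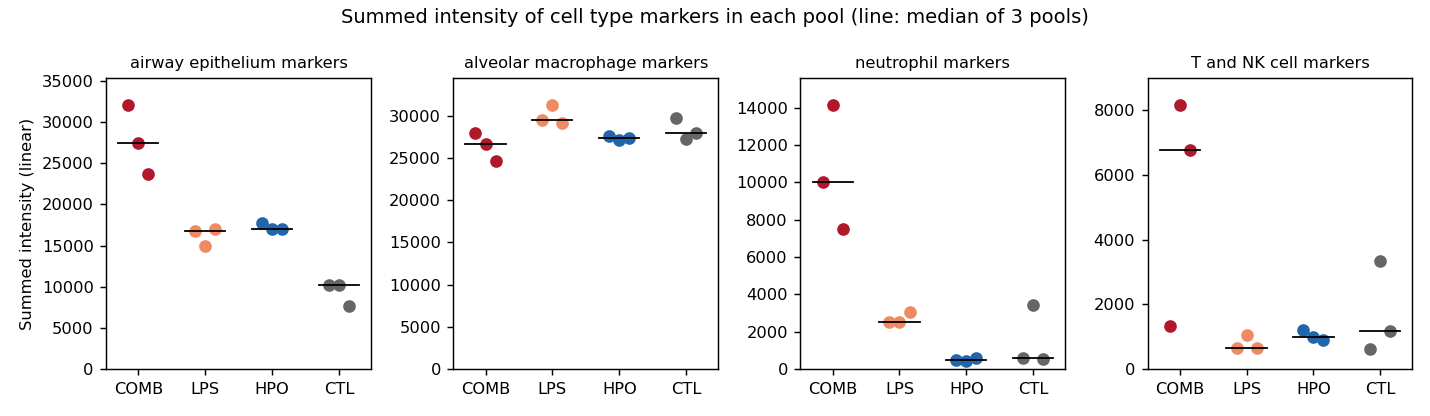
Summed linear intensity (y axis, from 0) of the markers of 4 cell types in each pool, with COMB, LPS, HPO and CTL from left to right and a line at the median of 3 pools. Airway epithelium sums lie between 23748 and 32110 in COMB and between 7622 and 10198 in CTL pools.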

How the data were processed

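Total RNA of BALF cells was pooled within groups and hybridised to 12 arrays. The deposited values are linear intensities, 1 per probe set and array, summarised by the authors from the array scans. Their methods name the software, but the normalization is not given in the sources used here. Pools were grouped by the sample labels. Intensities were used as log2 of the value plus 1. Of 31099 probe sets, 57 controls were left out and 25692 were kept, being above the 20th percentile of their array in at least 3 arrays. limma 3.58.1 in R 4.3.3 fitted 4 group means to all 12 arrays (8 residual and 3.94 prior degrees of freedom). P values were adjusted by Benjamini-Hochberg over all probe sets kept, with a threshold of 0.05, and the fit was tested on simulated data. Of all probe sets, 20832 name 1 gene, 436 several and 9831 none.

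Alternatives covered scaling, filters, the pseudocount, array weights, a trended robust fit, 1 probe set per gene and fits of only the groups compared. They also covered a replicate block, an unpaired t-test, the 2-fold criterion that the methods name, and the omission of each pool. The array methods of the paper name a paired t-test, which was not run. The genes and lists were chosen with earlier results of these data known. Named list genes are those called with the largest absolute change in COMB against CTL (up to 6 a list) and up to 2 a list in LPS and in HPO against CTL. The 5 genes most like and the 3 least like the mean pattern are also named.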

Additional observations from a re-analysis of the deposited data

How the results depend on the processing

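Of 1274 values of the 7 genes under the alternatives, 1166 kept their direction and their side of the threshold, and 29 changed sign, all 29 without a call in either fit. No scaling moved the median of all probe sets by over 0.1. With array weights, calls over all probe sets rose as well. They called 7 of the 7 genes in HPO against CTL (13.9% of all probe sets), 7 in hypoxia averaged over LPS (24.3%), 1 in LPS against CTL (14.4%), 2 in COMB against HPO (26.4%), 1 for the interaction (8.24%) and 2 in LPS averaged over hypoxia (29.3%). The weights ranged widely, with 6.38 for the HPO pool from rats 7, 8 and 9 and 0.226 for the HPO pool from rats 3, 5 and 12. The trended robust fit called 1 gene in LPS averaged over hypoxia. Fits of only the groups compared called 2 in COMB against CTL and 0 in COMB against LPS. An unpaired t-test, unadjusted, called 2 in LPS against CTL (17.2% of all probe sets) and 5 in HPO against CTL (8.66%). After adjustment it called 0 in COMB against CTL and 0 in COMB against LPS, as did the 2-fold criterion (0 and 0). The cause was not tested.

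With 1 pool left out, the count of called genes ranged from 1 to 4 in COMB against CTL, 0 to 0 in LPS against CTL, 0 to 1 in HPO against CTL, 0 to 2 in COMB against LPS, 0 to 1 in COMB against HPO, 0 to 0 for the interaction, 3 to 5 in hypoxia averaged over LPS and 0 to 1 in LPS averaged over hypoxia.

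Log2 fold changes that changed sign were near 0. Quantile normalization gave 0.0314 for Sqle in LPS against CTL. Centring gave -6e-04 for Fdft1 in COMB against CTL and -0.0051 for Srebf2 in COMB against HPO. Array weights gave -0.0787 for Idi1, -0.0262 for Fdps and -0.0385 for Srebf2 in COMB against HPO. Omission of a pool turned the sign in 23 cases. Over the omissions, COMB against CTL ran from -0.0809 to 0.2175 for Fdft1 and -0.2109 to 0.0843 for Cyp51, LPS against CTL from -0.1075 to 0.0267 for Sqle and -0.0559 to 0.1548 for Fdps, and COMB against LPS from -0.0234 to 0.2719 for Cyp51. COMB against HPO ran from -0.0246 to 0.1701 for Idi1, -0.1123 to 0.1146 for Fdps and -0.0603 to 0.1133 for Srebf2. The interaction ran from -0.1694 to 0.0923 for Fdps and -0.195 to 0.1034 for Fdft1, and LPS averaged over hypoxia from -0.0276 to 0.0956 for Fdps and -0.0844 to 0.0316 for Insig1.

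CTL and LPS pools share rat numbers in their labels, and a replicate block by these numbers called 0 of the 7 genes in LPS against CTL, as without the block. The deviations of the pools matched in the block correlated at 0.039, -0.008 and -0.002. The CTL pool from rats 5, 6 and 7 and the LPS pool from rats 2, 3 and 6 also share a number (-0.047). With 3 pools a group, these values cannot tell whether such pools share more than a number. HPO and COMB pools share numbers with pools of other groups too, such as the COMB pool from rats 2 and 3 with the LPS pool from rats 2, 3 and 6. No block was fitted for the HPO and COMB pools.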
